A study of Mus musculus with 6 samples.

Results

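The genes described here are 38 genes of skeletal muscle other than the myosin heavy chains, measured in the skin of young mice that overexpress Hoxc13 and of FVB controls. They were taken by name, as every probe set whose gene symbol was on the list, and fall into 19 contractile, 6 calcium-handling, 5 metabolic and 8 regulatory genes. Of the 38 genes, 32 had a probe set, 41 probe sets in all. The other 6 were not measured, namely the contractile genes Ttn, Neb, Mybpc1, Mybpc2 and Myot and the metabolic gene Ampd1. Of the 32 measured genes, 31 were bright enough to be tested, among 6867 genes tested and 8251 measured in the series. Total RNA of whole skin, taken 5 days after birth, was hybridised to 6 Affymetrix arrays, 3 with RNA of the inbred albino strain FVB and 3 with RNA of the transgenic line GC13, in which Hoxc13, a homeobox gene of the hair follicle, is overexpressed. Which promoter drives the transgene, and on which background the line is kept, is not stated in the labels. Whether the 3 arrays of each group stand for 3 different animals is not stated either, so the p-values rest on a spread between arrays that may be only technical. Hoxc13 itself was not analysed here, so the labels were not checked against it.

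Skeletal muscle fibres are built of sarcomeres, in which thin filaments of actin slide past thick filaments of myosin under the control of the calcium sensor troponin. A nerve impulse reaches the fibre through acetylcholine receptors, the L-type calcium channel of the membrane opens the ryanodine receptor, and calcium leaves its store in the sarcoplasmic reticulum. Fast and slow fibres use different isoforms of these proteins, and the myogenic factors Myod1, Myf5, Myog and Myf6 switch the genes on. Mouse skin carries a sheet of such muscle, the panniculus carnosus, beneath the dermis and fat. In whole skin, fewer muscle fibres and less RNA per fibre cannot be told apart, and neither can more fibres and more RNA per fibre.

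The deposited intensities are linear, and their sum per array ran from 1626361 to 1736141. Differences are given as log2 fold changes, GC13 minus FVB, on the log2(intensity + 2) scale after each array was centred on its median, and each adjusted p is from limma with Benjamini-Hochberg adjustment over 9316 probe sets. GC13 replicate 2 stood apart from all other arrays in a measure of RNA quality. The ratio of 3′ to 5′ signal for Gapdh, a control for RNA integrity that rises as RNA breaks down, was there 9.58, against 2.22 and 2.19 in GC13 replicates 1 and 3 and 0.894 to 0.958 in FVB (exact two-sided permutation p = 0.1 for GC13 against FVB, the smallest that 3 against 3 arrays allow). The same ratio for beta-actin was 3.80, 1.26 and 1.43 in GC13 replicates 2, 1 and 3 and 1.16 to 1.36 in FVB (exact permutation p = 0.2). The Y-linked gene Eif2s3y read 69.4, 98.9 and 79.6 in FVB against 3.25, 143 and 4.60 in GC13 replicates 1, 2 and 3. By this gene replicate 2 went with FVB, and replicates 1 and 3 were the arrays apart. Results that rest on GC13 replicate 2 are therefore given with and without it. Without this array, the low Eif2s3y level goes with the GC13 arrays, so that sex and line cannot be told apart, and RNA quality still differs between the groups.

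No skeletal muscle gene passed the threshold when all 6 arrays were compared. Of the 31 tested genes, 0 rose and 0 fell in limma at an adjusted p under 0.05, against 0.393% of all genes tested called in either direction. At an unadjusted p under 0.05 there were 7 muscle genes (22.6%), against 1001 of all 6867 genes (14.6%). The log2 fold change was above 0 for 23 of the 31 muscle genes (74.2%) and below 0 for 8, and its median was 0.28, against 57.0% above 0 and a median of 0.07 over all genes. On this centred scale, every GC13 array lay above every FVB array for 9 genes, where 15.0% of all genes did so, and for 2 genes every GC13 array lay below, where 9.55% did. The 9 were Acta1, Myl1, Tnnt3, Ldb3, Casq1, Eno3, Myog, Myf6 and Chrna1, and the 2 were Tnnt1 and Actn3. The summed intensity of the 31 tested muscle genes was 5236, 5285 and 5380 in FVB against 7084, 5592 and 7058 in GC13 replicates 1, 2 and 3. The standard error of a log2 fold change ran from 0.19 to 0.62 with a median of 0.23.

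Without GC13 replicate 2, 6 of the 31 muscle genes rose and 0 fell. The 6 were Ldb3, Tnnt3 and Des of the contractile genes, Casq1 and Atp2a1 of the calcium-handling genes and Eno3 of the metabolic genes. In that comparison 5.62% of all genes tested rose and 8.66% fell. The share of muscle genes that rose was 19.4%. The median log2 fold change of the muscle genes was 0.39 without that array, against 0.01 over all genes, and 26 of the 31 were above 0. Over the 16 alternatives fitted to single probe sets, the limma adjusted p ranged from 0.000599 to 0.465 for Casq1 and 0.000676 to 0.481 for Ldb3. It ranged from 0.0012 to 0.551 for Eno3, 0.00145 to 0.631 for Tnnt3, 0.00316 to 0.839 for Des and 0.00539 to 0.798 for Atp2a1. Each of the 6 passed in 2 of these 16, without GC13 replicate 2 and with array weights, which gave that array the least weight. A further alternative, the mean of all probe sets of a gene, was fitted to all 6 arrays, and 0 muscle genes passed. The main fit over 6 arrays also gave 0, so this alternative does not bear on the fit without GC13 replicate 2. The plot of log2 fold changes shows both fits gene by gene.

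**Figure D1:**
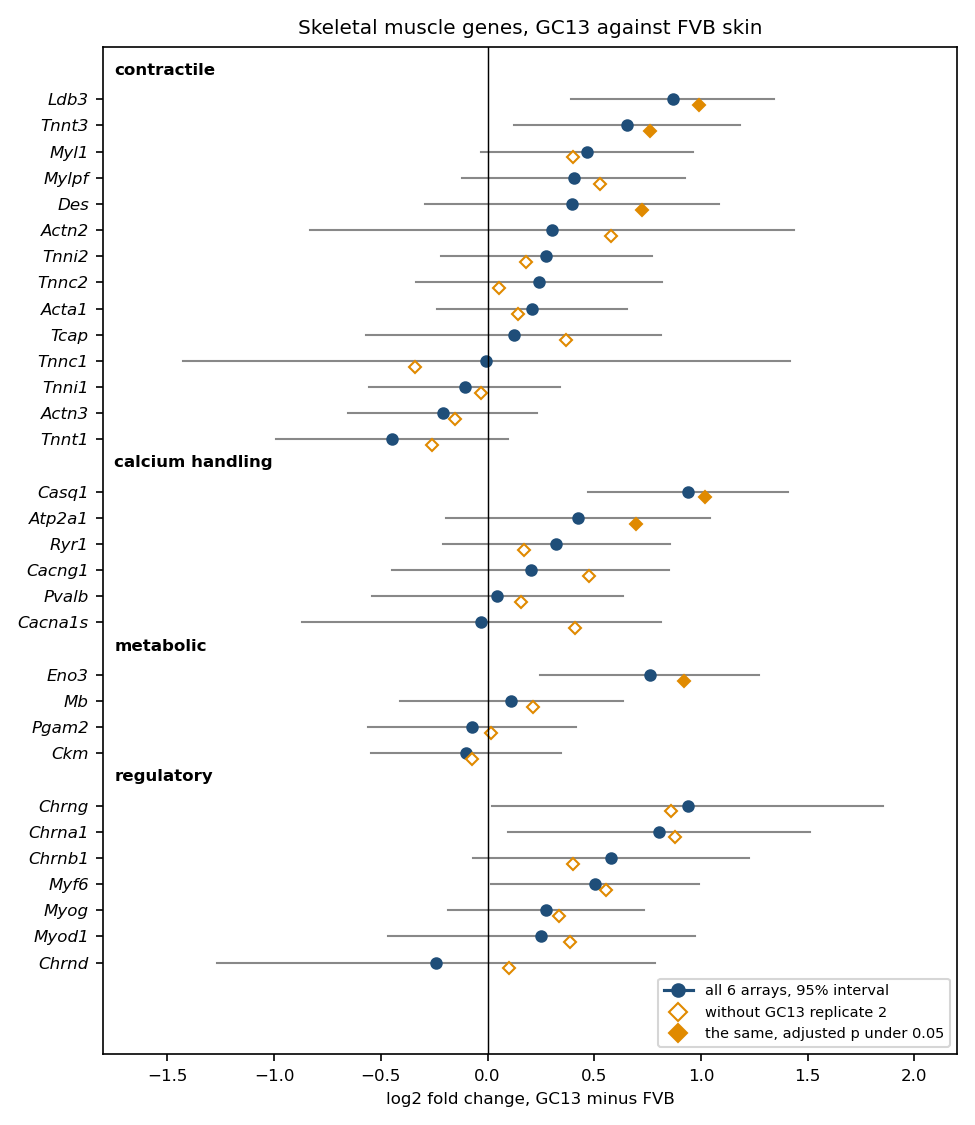
Log2 fold change (GC13 minus FVB, log2 scale) of the 31 tested skeletal muscle genes, grouped by function. Blue points and grey lines are the fit over 6 arrays with its 95% confidence interval, and orange diamonds are the fit without GC13 replicate 2, filled where the adjusted p was under 0.05. Of the intervals over 6 arrays, those of Ldb3, Tnnt3, Casq1, Eno3, Chrna1, Chrng and Myf6 lie above 0, and the 6 filled diamonds are Ldb3, Tnnt3, Des, Casq1, Atp2a1 and Eno3.

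Among the contractile genes, 14 of 19 were measured and tested, 10 with a log2 fold change above 0 and 4 below. Their median was 0.26, and 0.27 without GC13 replicate 2. Ldb3 (Entrez gene 24131) encodes a protein of the Z disc, the plate that anchors the thin filaments. Its intensity was 65.2, 66.4 and 73.3 in FVB against 137, 87.6 and 143 in GC13 replicates 1, 2 and 3. All 3 GC13 arrays were above all FVB arrays, with replicate 2 the lowest of them. The means were 68.3 ± 4.42 and 122 ± 30.4 (SD, n = 3), for a log2 fold change of 0.87 (SE 0.21, 1.83-fold, adjusted p = 0.131). Without replicate 2 it rose by 0.99 (1.99-fold, adjusted p = 0.0131).

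Tnnt3 (Entrez gene 21957) encodes fast troponin T, which ties the troponin complex to tropomyosin. It was measured at 196, 195 and 194 in FVB against 391, 219 and 290.4 in GC13 replicates 1, 2 and 3. The FVB arrays lay close together, and the GC13 arrays all lay above them but were spread widely. The log2 fold change was 0.65 (SE 0.23, 95% confidence interval 0.12 to 1.18, adjusted p = 0.239), and without GC13 replicate 2 Tnnt3 rose by 0.76, with an adjusted p of 0.0493 that lies close to the threshold. The other fast troponins are the inhibitory subunit Tnni2 and the calcium-binding subunit Tnnc2. Their groups overlapped, with log2 fold changes of 0.28 (adjusted p = 0.578) and 0.24 (adjusted p = 0.681). Tnni2 was 29.2, 25.5 and 35.0 in FVB against 32.5, 34.5 and 36.3 in GC13. Tnnc2 was 328, 302 and 356 in FVB against 388, 419 and 308 in GC13, and the GC13 array with its lowest value was replicate 3. A further probe set of Tnnc2 was too dim to be tested.

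Acta1, the actin of skeletal muscle thin filaments, was 1746, 1830 and 1684 in FVB against 1855, 1850 and 2081 in GC13. The groups did not overlap, yet the log2 fold change was only 0.21 (SE 0.19, 95% confidence interval -0.23 to 0.65, adjusted p = 0.638). Myl1, an essential myosin light chain of fast fibres, was 968, 961 and 1005 in FVB against 1492, 1237 and 1151 in GC13, again without overlap. Its log2 fold change was 0.47 (SE 0.21, adjusted p = 0.348), and 0.40 without GC13 replicate 2 (adjusted p = 0.176). Mylpf, the regulatory light chain of fast fibres, had a log2 fold change of 0.40 (adjusted p = 0.437), and its values overlapped, at 80.8, 84.5 and 105 in FVB against 112, 82.6 and 155 in GC13. The second probe set of Mylpf gave 0.27.

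Des (Entrez gene 13346) encodes desmin, the intermediate filament that links the Z discs of neighbouring myofibrils. Des was 39.7, 42.1 and 43.8 in FVB against 73.5, 28.5 and 69.5 in GC13 replicates 1, 2 and 3, so that replicate 2 lay below every FVB array and the other GC13 arrays above. The log2 fold change was 0.40 over 6 arrays (SE 0.30, adjusted p = 0.564), and Des rose by 0.72 without replicate 2 (adjusted p = 0.03). Actn2, an alpha-actinin of the Z disc, and Tcap, which binds titin there, had log2 fold changes of 0.30 (adjusted p = 0.802) and 0.12 (adjusted p = 0.872). Actn2 ranged from 6.0 to 14.7 in FVB and from 7.06 to 34.3 in GC13, and Tcap from 12.8 to 21.7 in FVB and from 10.8 to 24.1 in GC13. The groups of both genes overlapped.

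The contractile genes with a log2 fold change below 0 were Tnnt1, Actn3, Tnni1 and Tnnc1. Tnnt1, the slow troponin T, was 95.7, 102 and 90.9 in FVB against 85.1, 44.1 and 77.0 in GC13, so that all GC13 arrays lay below FVB. The log2 fold change was -0.45 (SE 0.23, adjusted p = 0.403) and -0.26 without GC13 replicate 2 (adjusted p = 0.276). A second, dimmer probe set of Tnnt1 went the other way, with 17.9, 20.9 and 20.6 in FVB, 25.4, 19.5 and 30.0 in GC13 and a log2 fold change of 0.36 (adjusted p = 0.409). The probe sets of Tnnt1 therefore give no common direction.

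The same holds for Actn3, the alpha-actinin of fast fibres. Its brighter probe set read 42.7, 41.5 and 39.3 in FVB against 36.0, 26.7 and 38.9 in GC13, for a log2 fold change of -0.21 (SE 0.19, adjusted p = 0.636) with all GC13 arrays below FVB, and its second probe set gave 0.24. Tnni1, the slow inhibitory troponin, was 83.6, 88.3 and 93.9 in FVB against 86.6, 60.8 and 89.5 in GC13, with a log2 fold change of -0.11 (adjusted p = 0.823). In intensity, only GC13 replicate 2 lay outside the range of Tnni1 in FVB. Tnnc1, the slow calcium-binding troponin, was dim and scattered, from 3.65 to 14.0 in FVB and from 1.95 to 14.0 in GC13, and its log2 fold change of -0.01 had a standard error of 0.62.

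**Figure D2:**
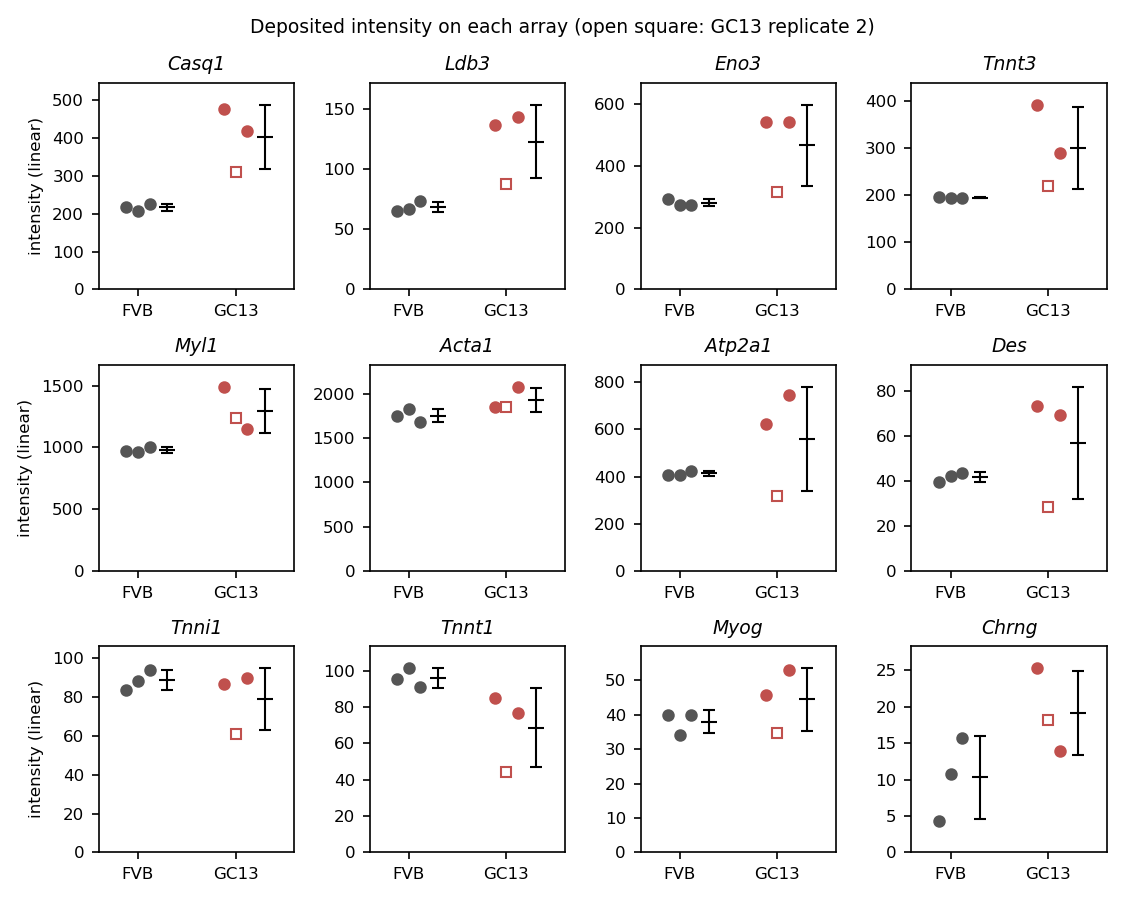
Deposited linear intensity of 12 skeletal muscle genes on each array, with axes from 0. Grey points are FVB, red points GC13, the open square GC13 replicate 2, and the black bars the mean and SD of 3 arrays. Casq1, Ldb3, Eno3 and Tnnt3 lie above FVB on all 3 GC13 arrays with replicate 2 the lowest, while Des and Atp2a1 lie below FVB on replicate 2 and above it on the others.

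All 6 calcium-handling genes were measured and tested, and 5 had a log2 fold change above 0. Their median was 0.26, and 0.44 without GC13 replicate 2, the median deviations from the FVB mean being 0.47, -0.15 and 0.48 on GC13 replicates 1, 2 and 3. Casq1 (Entrez gene 12372) encodes calsequestrin, the calcium-binding protein of the store in fast fibres. Casq1 was 217, 207 and 226 in FVB against 478, 311 and 419 in GC13 replicates 1, 2 and 3. The lowest GC13 array was well above the highest FVB array. The means were 217 ± 9.79 and 403 ± 84.6 (SD, n = 3), for a log2 fold change of 0.94 (SE 0.20, 95% confidence interval 0.47 to 1.41, 1.92-fold). Its adjusted p of 0.108 was the lowest among the muscle genes and missed the threshold, and without replicate 2 Casq1 rose by 1.02 (2.02-fold, adjusted p = 0.0169).

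Atp2a1 (Entrez gene 11937), the pump that returns calcium to the store in fast fibres, was 407, 407 and 426 in FVB against 622, 316 and 745 in GC13 replicates 1, 2 and 3. As with Des, replicate 2 was below every FVB array while replicates 1 and 3 were above. The log2 fold change was 0.42 (SE 0.27, adjusted p = 0.487), and Atp2a1 rose by 0.69 without replicate 2 (adjusted p = 0.0312). A dimmer probe set of Atp2a1 did not show the dip, with 157, 148 and 149 in FVB against 225, 252 and 209 in GC13, all GC13 arrays above FVB. It had a log2 fold change of 0.66 (adjusted p = 0.233), which was 0.49 without replicate 2 (adjusted p = 0.078).

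Ryr1, the channel that releases calcium from the store, was 62.4, 48.9 and 54.0 in FVB against 58.6, 71.0 and 67.8 in GC13, for a log2 fold change of 0.32 (adjusted p = 0.539) with overlapping groups. The L-type calcium channel that gates it was represented by its pore subunit Cacna1s and its gamma subunit Cacng1. Cacna1s was 27.2, 29.8 and 31.8 in FVB against 36.5, 12 and 45.0 in GC13 replicates 1, 2 and 3. Cacng1 was 31.2, 26.5 and 31.6 in FVB against 46.0, 18.8 and 39.7 in GC13. Both subunits showed the pattern of Des and Atp2a1, with replicate 2 below FVB and the other GC13 arrays above. Their log2 fold changes were -0.03 and 0.20 over 6 arrays (adjusted p = 0.981 and 0.764), and 0.41 and 0.47 without replicate 2 (adjusted p = 0.107 and 0.112). Pvalb, parvalbumin, a soluble calcium buffer of fast fibres, had a log2 fold change of 0.04 (adjusted p = 0.951), at 191, 188 and 253 in FVB against 182, 153 and 306 in GC13. The second probe set of Pvalb had the opposite sign, -0.39.

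Of the metabolic genes, 4 of 5 were measured and tested, 2 with a log2 fold change above 0 and 2 below, and their median was 0.02 (0.11 without GC13 replicate 2). Eno3 (Entrez gene 13808), the muscle enolase of glycolysis, had the largest log2 fold change of the 4, each taken by its brightest probe set. It was 293, 275 and 274 in FVB against 541, 316 and 542 in GC13 replicates 1, 2 and 3. All GC13 arrays lay above FVB, replicate 2 only slightly so. The means were 281 ± 11.0 and 466 ± 130 (SD, n = 3), for a log2 fold change of 0.76 (SE 0.22, 1.69-fold, adjusted p = 0.182), and Eno3 rose by 0.92 without replicate 2 (1.89-fold, adjusted p = 0.0173).

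Pgam2, the muscle phosphoglycerate mutase, stands beside Eno3 in glycolysis. It was 91.0, 98.1 and 94.5 in FVB against 107, 65.2 and 88.1 in GC13, for a log2 fold change of -0.07 (SE 0.21, adjusted p = 0.893). Mb, myoglobin, the oxygen store of muscle, was 17.2, 14.4 and 18.7 in FVB against 16.3, 12.6 and 24.4 in GC13, for a log2 fold change of 0.11 (adjusted p = 0.846). For both genes the GC13 arrays lay on either side of the FVB values. A second probe set of Mb was too dim to be tested.

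Ckm, the muscle creatine kinase that buffers ATP, was 54.4, 63.2 and 55.6 in FVB against 56.8, 42.3 and 54.3 in GC13 on its brighter probe set, for a log2 fold change of -0.10 (adjusted p = 0.831). The groups overlapped. Its other probe set read 5.63, 2.88 and 5.38 in FVB against 20.3, 1.64 and 25.9 in GC13. There the log2 fold change was 1.09 with a standard error of 0.64 (adjusted p = 0.456), and the dim probe set rose by 1.92 without GC13 replicate 2 (adjusted p = 0.0105), while the brighter one stayed at -0.07.

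The regulatory genes had the highest median of the 4 groups with all 6 arrays, 0.50 over 7 tested genes, 6 above 0 and 1 below. Without GC13 replicate 2 the median of the regulatory genes was 0.40, below the 0.44 of the calcium-handling genes. No regulatory gene passed the threshold in either fit through the probe set that stands for the gene, its brightest one. On the 3 GC13 arrays the median deviations from the FVB mean were 0.70, 0.40 and 0.41, so that replicate 2 was the lowest, close to replicate 3. None of them read above 80.6 on any array.

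Of the myogenic transcription factors, Myog, which drives the last step of differentiation, was 39.8, 34.1 and 39.9 in FVB against 45.6, 34.8 and 52.9 in GC13. Its groups were apart only after centring on the array medians, and the log2 fold change was 0.27 (SE 0.20, adjusted p = 0.546). Myf6, found in mature fibres, was 18.6, 18.6 and 23.8 in FVB against 26.3, 22.4 and 36.9 in GC13. Its log2 fold change was 0.50 (SE 0.21, adjusted p = 0.313), again with groups apart only on the centred scale. Myod1, which commits cells to the muscle lineage, was 34.4, 38.5 and 44.5 in FVB against 33.7, 31.7 and 80.6 in GC13. Only GC13 replicate 3 was high for Myod1, and the log2 fold change was 0.25 (SE 0.31, adjusted p = 0.737). Myf5, the earliest of the factors, was too dim to be tested, from 2.0 to 2.65 in FVB and from 2.77 to 5.83 in GC13.

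The acetylcholine receptor of the muscle membrane was measured through 4 subunits. Chrna1, the alpha subunit that binds acetylcholine, was 12.3, 5.43 and 8.36 in FVB against 20.8, 11.5 and 14.3 in GC13, for a log2 fold change of 0.80 (SE 0.31, adjusted p = 0.278). The Chrna1 groups were apart only on the centred scale. Chrng, the gamma subunit of the receptor before and shortly after birth, was 4.36, 10.8 and 15.7 in FVB against 25.3, 18.1 and 13.9 in GC13. Its log2 fold change was 0.94 (SE 0.40, adjusted p = 0.314), and the groups overlapped through GC13 replicate 3. The other probe set of Chrng read 6.0, 10.2 and 8.06 in FVB against 21.3, 10.7 and 35.1 in GC13, without overlap. It gave a log2 fold change of 1.23 (SE 0.33, adjusted p = 0.152) and rose by 1.54 without GC13 replicate 2 (adjusted p = 0.0165), so that both probe sets of Chrng had the same sign but only the dimmer one passed in that fit.

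Chrnb1, the beta subunit, was 19.9, 24.1 and 18.6 in FVB against 36.1, 34.1 and 22.5 in GC13, with a log2 fold change of 0.58 (SE 0.28, adjusted p = 0.368). Chrnd, the delta subunit with the largest standard error of the group, was measured at 5.11, 9.51 and 13.1 in FVB against 15.0, 2.69 and 6.04 in GC13, for a log2 fold change of -0.24 (SE 0.44, adjusted p = 0.827). The groups of both subunits overlapped. For these dim probe sets the added 2 makes a fold change smaller than that of the intensities.

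**Figure D3:**
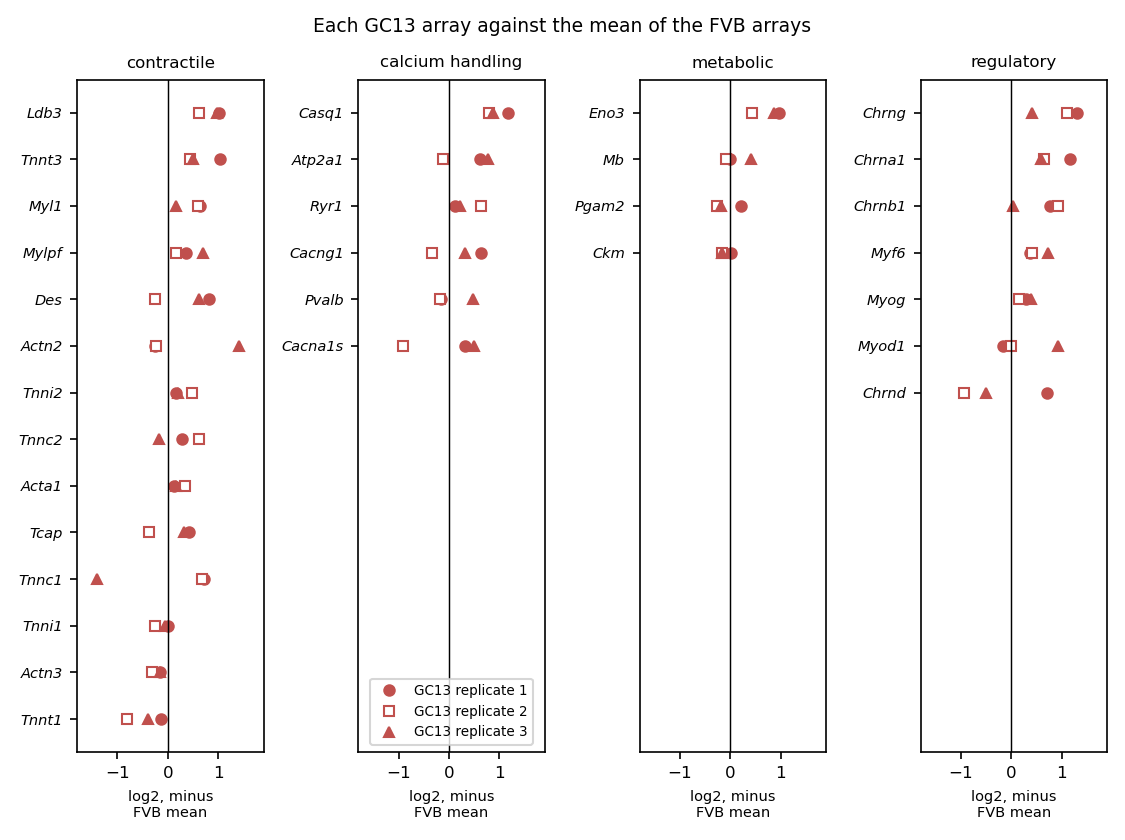
Deviation of each GC13 array from the mean of the 3 FVB arrays (log2 scale, centred on the array medians) for the 31 tested genes in their 4 groups. Circles, open squares and triangles are GC13 replicates 1, 2 and 3. In the calcium-handling panel the squares of Atp2a1, Cacng1 and Cacna1s lie to the left of 0 and the other symbols to the right, while in the regulatory panel the squares of Chrng, Chrna1, Chrnb1, Myf6 and Myog lie to the right of 0.

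The 5 DNA windows that follow are printed for Casq1, Eno3 and Ldb3, each with the largest log2 fold change of its group, and for Chrna1 and Chrng, the regulatory genes with the largest ones. Each is the 250 bases before the gene's start in RefSeq on GRCm38.p6, written 5′ to 3′ on the gene's strand. The myogenic factors bind E-boxes, CANNTG, and above all the form CAGCTG. Capitals mark every E-box CANNTG in these windows, and in Ldb3 a CArG box, the motif of serum response factor.

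Casq1, chr1:172219896-172220145, minus strand: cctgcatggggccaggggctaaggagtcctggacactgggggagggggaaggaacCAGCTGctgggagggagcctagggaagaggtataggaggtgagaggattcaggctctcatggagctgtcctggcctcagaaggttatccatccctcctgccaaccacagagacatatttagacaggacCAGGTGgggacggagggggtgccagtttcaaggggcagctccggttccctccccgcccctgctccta
Eno3, chr11:70656926-70657175, plus strand: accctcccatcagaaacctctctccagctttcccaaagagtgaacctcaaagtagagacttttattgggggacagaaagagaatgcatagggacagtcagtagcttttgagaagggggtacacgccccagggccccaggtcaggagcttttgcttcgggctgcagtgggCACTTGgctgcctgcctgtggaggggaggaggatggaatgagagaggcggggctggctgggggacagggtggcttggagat
Ldb3, chr14:34588682-34588931, minus strand: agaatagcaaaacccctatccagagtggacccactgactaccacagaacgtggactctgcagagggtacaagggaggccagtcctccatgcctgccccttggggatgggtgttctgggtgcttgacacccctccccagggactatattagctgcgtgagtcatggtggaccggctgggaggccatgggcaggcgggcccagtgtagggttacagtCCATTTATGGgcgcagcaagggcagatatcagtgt
Chrna1, chr2:73580339-73580588, minus strand: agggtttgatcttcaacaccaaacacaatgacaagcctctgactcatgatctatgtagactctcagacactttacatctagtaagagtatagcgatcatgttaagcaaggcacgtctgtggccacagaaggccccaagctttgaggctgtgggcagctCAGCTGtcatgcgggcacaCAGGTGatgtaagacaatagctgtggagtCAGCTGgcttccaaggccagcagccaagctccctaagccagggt
Chrng, chr1:87205561-87205810, plus strand: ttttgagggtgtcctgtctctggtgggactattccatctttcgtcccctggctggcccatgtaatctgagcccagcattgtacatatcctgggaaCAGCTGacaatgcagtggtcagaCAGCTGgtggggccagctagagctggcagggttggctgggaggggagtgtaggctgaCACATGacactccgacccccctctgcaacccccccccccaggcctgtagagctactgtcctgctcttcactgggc

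In these windows Casq1, Chrna1 and Chrng hold CAGCTG, Eno3 holds the E-box CACTTG and Ldb3 holds no E-box. Windows were found for 27 of the 38 genes, 32 windows in all because some genes have several starts. Searched on both strands, CAGCTG was in 50% of the windows of muscle genes and in 13.0% of the 32851 windows of all genes, and CANNTG, which includes it, in 84.4% and 66.2%. CACCTG was in 28.1% and 17.2%, the MEF2 motif in 9.38% and 1.69%, and the CArG box in 9.38% and 1.47%. The genes with the MEF2 motif were Pgam2, Pvalb and the unmeasured Ttn, and those with the CArG box were Acta1 and Ldb3. CAGCTG was found for 14 genes, which included Acta1, Myl1, Mylpf, Atp2a1 and Des, but also Ckm, Tnni1, Mb and Pgam2, whose log2 fold changes lay between -0.11 and 0.11. A match is a description of these letters and not a binding site.

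The fast and slow isoforms among these genes were listed separately. Of 9 fast isoforms tested, 8 had a log2 fold change above 0 and 1 (Actn3) below, with a median of 0.40. Of 4 genes listed as slow isoforms, with myoglobin counted among them, Mb was above 0 and Tnnc1, Tnni1 and Tnnt1 below, with a median of -0.06. Each gene stood by its brightest probe set. Second probe sets had the opposite sign for Tnnt1 (0.36), Actn3 (0.24) and Pvalb (-0.39), and the standard error of Tnnc1 was 0.62. None of either list passed the threshold with all 6 arrays, and the difference between the lists was not tested. The myosin heavy chains, which are outside both lists, did not divide in this way. Myh7, the slow heavy chain, had log2 fold changes of 0.89 and 1.615 on dim probe sets (limma adjusted p = 0.367 and 0.157). Of the fast heavy chains, Myh1 stood at 0.07, and Myh4 at -1.20 on its brighter probe set and 1.09 on the other. Without GC13 replicate 2 the medians were 0.40 and -0.15, and of these isoforms Tnnt3, Atp2a1 and Casq1 rose, 3 of the 9 fast isoforms and 0 of the 4 slow ones, against 5.62% of all genes. With 4 genes, a count of 0 shows no difference from that share. The summed intensity of the fast isoforms was 2460, 2410 and 2638 in FVB against 3735, 2799 and 3449 in GC13, and that of the slow isoforms 205, 218 and 207 in FVB against 202, 129 and 193 in GC13.

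The arrays of the GC13 group differed from each other in these genes. On GC13 replicate 1, 21 of the 31 muscle genes lay above every FVB array and 3 below, where 41.5% and 35.2% of all genes did so. Replicate 3 had 19 above and 7 below, against 37.2% and 43.6% of all genes. Replicate 2 had 14 above and 11 below, against 53.3% and 27.0%. The 11 genes below FVB on replicate 2 were Tnni1, Tnnt1, Actn3, Des, Atp2a1, Pvalb, Cacng1, Cacna1s, Ckm, Pgam2 and Chrnd. The median deviation of the muscle genes from the FVB mean was 0.36, 0.15 and 0.38 on GC13 replicates 1, 2 and 3, and that of all genes 0.06, 0.23 and -0.04. The part of RNA quality in this pattern was not tested.

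The muscle genes also differed in how closely they followed their common profile over the 6 arrays, which is given as a description. The median of the 31 genes, each centred on its own mean, was -0.10, -0.25 and -0.04 in FVB against 0.25, -0.05 and 0.18 in GC13 replicates 1, 2 and 3. Pearson's r with this median profile was over 0.8 for 11 of the 31 genes, which helped to make it, and for 10% of all genes. Myog (0.92), Eno3 (0.92) and Ldb3 (0.91) followed it most closely, and Actn3 (-0.42), Ckm (-0.41), Tnnc1 (-0.30) and Tnnt1 (-0.27) ran against it. Among genes outside all lists the closest were Etv2 (0.99), Alx4 (0.99), Nucb1 (0.98), Adam28 (0.98), Desi1 (0.98), Dad1 (0.98), Coq10a (0.98), Gltp (0.98), Reep5 (0.97) and Sult4a1 (0.97). All points share the same 6 arrays and their quality.

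Other genes of skeletal muscle lay in the same range. Of 82 further muscle genes in 4 lists, 53 were measured and 48 tested, 38 with a log2 fold change above 0 and 10 below, with a median of 0.30 and none past the threshold. The medians were 0.32 over 15 contractile and Z disc genes, 0.53 over 4 calcium and excitation genes, 0.29 over 12 metabolic genes and 0.24 over 17 regulatory, membrane and synapse genes. For 10 of the 48 (20.8%) every GC13 array lay above every FVB array, and for 0 below, against 15.0% and 9.55% of all genes. Fhl1, a LIM-domain protein of muscle, was 414, 401 and 408 in FVB against 585, 608 and 629 in GC13 on its brightest probe set. That probe set had no dip on replicate 2 (log2 fold change 0.65, adjusted p = 0.198). A second probe set of Fhl1 did, at 259, 252 and 262 in FVB against 261, 161 and 325 in GC13 replicates 1, 2 and 3. It gave a log2 fold change of -0.03. Cox6a2, the muscle form of a cytochrome oxidase subunit, was 158, 161 and 156 in FVB against 253, 168 and 241 in GC13 (log2 fold change 0.52, adjusted p = 0.271).

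The other genes with the smallest unadjusted p of their list were Tpm2 with a log2 fold change of 0.52, Hrc with 0.68, Casq2 with 0.37, Art1 with 0.44, Mef2d with 0.45 and Ankrd2 with 0.67, at adjusted p from 0.236 to 0.496. Tpm2 is a tropomyosin, Hrc and Casq2 bind calcium in the store, and Mef2d is a transcription factor that works with the myogenic factors. Without GC13 replicate 2, 5 of the 48 (10.4%) rose and 1 fell, against 5.62% and 8.66% of all genes. Ankrd2 rose by 1.06, Pygm, the muscle glycogen phosphorylase, by 0.74, Tpm2 by 0.66, Cox6a2 by 0.61 and Fhl1 by 0.55. The second probe set of Fhl1 stood at 0.15 in that fit (limma adjusted p = 0.484). Tpm1, also a tropomyosin, fell, with a log2 fold change of -0.68 (adjusted p = 0.0318). Other cells of skin also express Tpm1, and what such cells add to the values of any of these genes, risen or fallen, was not tested.

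The myosin heavy chains, the motors of the thick filament, are not among the 38 genes. Of the 5 tested, 4 had a log2 fold change above 0, with a median of 0.46, and none passed the threshold with all 6 arrays. Myh3, the embryonic heavy chain, was 10.2, 10.9 and 12.6 in FVB against 24.1, 23.4 and 24.0 in GC13 (log2 fold change 1.04, adjusted p = 0.0797), and rose by 0.96 without GC13 replicate 2 (adjusted p = 0.0167). Myh4, a heavy chain of fast fibres, had a log2 fold change of -1.20 on its brighter probe set (adjusted p = 0.24) and 1.09 on the other (adjusted p = 0.217). Without GC13 replicate 2 the brighter probe set of Myh4 fell, with a log2 fold change of -1.71 (adjusted p = 0.00685), opposite in direction to the 6 muscle genes that rose in that fit, and the other stood at 1.32 (adjusted p = 0.0521).

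Markers of other cells of skin were set beside the muscle genes, and their part in the muscle values was not tested. Of 8 keratinocyte markers, which define the epidermis, 7 were measured and 5 were bright enough to test. These 5 had a summed intensity of 5376 to 5603 in FVB against 5924 to 10260 in GC13 and a median log2 fold change of 0.51. The 8 dermal fibroblast markers were all above 0, with a median of 0.59 and a summed intensity of 8635 to 9311 in FVB against 11150 to 14140 in GC13. Endothelial markers had 6 of 7 above 0 (median 0.40) and nerve and Schwann cell markers 2 of 4 (median 0.21). Smooth muscle markers, the closest kin of the contractile genes in skin, had 3 of 7 above 0 and 4 below, with a median of -0.15, and their summed intensity was 1318 to 1369 in FVB against 1331 to 1465 in GC13. Of the 7 cardiac markers measured only Tnnt2 and Nppa were bright enough to test, and Myh6, Myl7, Tnni3, Ryr2 and Myl2 were too dim. Brown adipocyte markers had a median of -0.58 over 4 genes, with 3 below 0, white adipocyte markers 0.31 over 4 and hair follicle markers -0.17 over 9. Summed intensities are over the tested genes of a list. In the lists of this paragraph only Krt72, an inner root sheath keratin among the hair follicle markers, passed the threshold with all 6 arrays (log2 fold change -1.37, adjusted p = 0.0351).

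The same markers are given without GC13 replicate 2, the fit in which the 6 muscle genes rose. In that fit 3 of 5 keratinocyte markers (Krt1, Lor and Flg) rose, with a median of 0.95 over the 5. These 3 were the only keratinocyte markers above 0 there, where all 5 had been above 0 with all 6 arrays. Of the 8 dermal fibroblast markers, 4 (Col1a2, Pdgfra, Col5a1 and Col6a3) rose and 7 were above 0, with a median of 0.62. Eng of the endothelial markers, Ncam1 of the nerve markers and Nppa of the cardiac markers also rose, and the medians of these lists were 0.38, 0.02 and 0.57. Of the 4 brown adipocyte markers Ucp1 and Cidea fell and Dio2 rose, with a median of -0.90, and of the 9 hair follicle markers Krt72 and Foxn1 fell, with a median of -0.25. None of the 7 smooth muscle and 4 white adipocyte markers passed, with medians of -0.34 and -0.03.

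**Figure D4:**
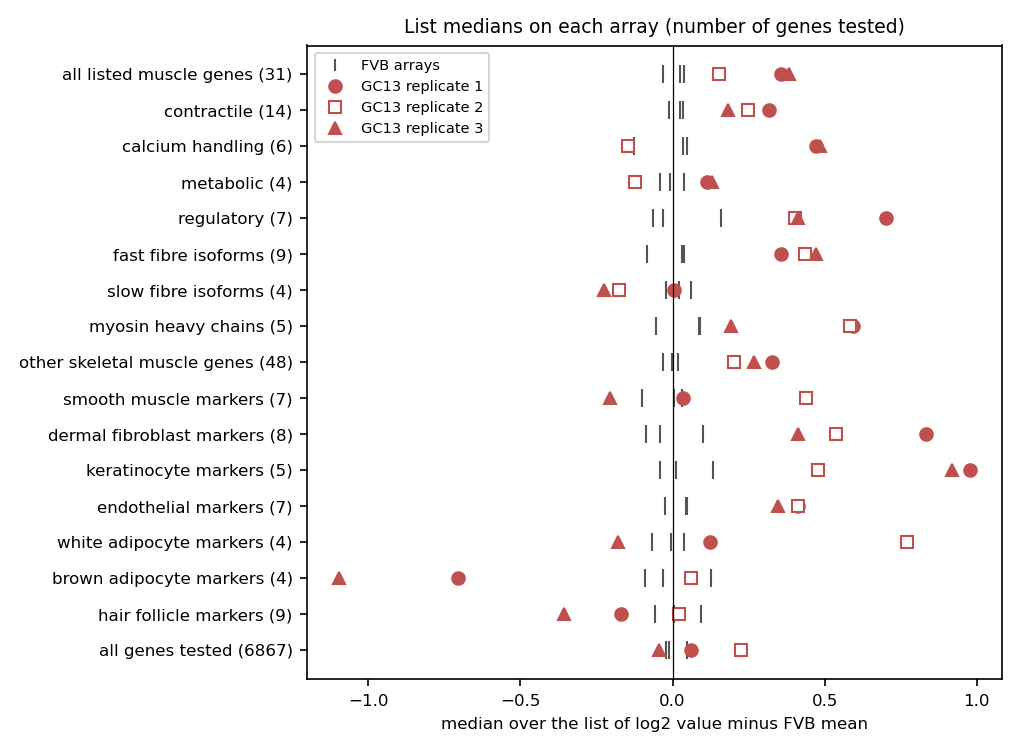
Median over each gene list of the log2 value minus the mean of the FVB arrays, on each array, with the number of genes tested in parentheses. Grey ticks are the 3 FVB arrays, red circles, open squares and triangles GC13 replicates 1, 2 and 3. All listed muscle genes lie at 0.36, 0.15 and 0.38 on the GC13 arrays, the slow fibre isoforms at or below 0, and the dermal fibroblast markers to the right of all FVB ticks.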

How the data were processed

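Total RNA of whole skin was measured on 6 arrays, 3 FVB and 3 GC13, grouped by the sample labels. The authors' deposited values are linear intensities, 1 for each of 12488 probe sets per array. The values show that every array was scaled to a trimmed mean of 100.1 with 2% left out at each end; the software is not given in the sources used here. The 66 control probe sets were left out. The other 12422 were set to log2(intensity + 2), centred on each array's median because the medians differed by up to 0.345 (limit 0.2), and the 25% with the lowest mean were left out, leaving 9316. GC13 and FVB were compared with limma 3.58.1 in R 4.3.3 (lmFit, eBayes, two-sided, Benjamini-Hochberg over 9316 probe sets, threshold 0.05), checked on simulated data. In that simulation every array had the same spread, so it does not cover an array that stands apart, such as GC13 replicate 2. The number of arrays limits the precision. Symbols came from the platform annotation, which can be old, updated through RefSeq (GRCm38.p6): 10833 probe sets had 1 symbol. The brightest probe set stands for a gene. Every gene of the set is named; values per array follow from small p, high intensity, non-overlap or, for myogenic factors and receptor subunits, in any case. The genes, the 17 other lists and the tests were chosen with earlier results of these data known. Alternatives changed the pseudocount, filter, scaling, variance model, gene summary, replicate block and arrays used.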

Additional observations from a re-analysis of the deposited data

How the results depend on the processing

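The median log2 fold change of the muscle genes stayed above 0 in every alternative run, from 0.13 (pseudocount 32) to 0.39 (without GC13 replicate 2). The number of muscle genes past the threshold was 0 in every alternative except array weights, where it was 13, and leaving out GC13 replicate 2; leaving out each array in turn gave 0 to 6. Array weights gave GC13 replicate 2 a weight of 0.107. Over all 9316 probe sets, 44 were called; this became 83 with pseudocount 16, 117 with pseudocount 32, 23 with the dimmest 50% left out, 28 with no centring, 3850 with array weights and 0 to 1379 with 1 array left out, namely 0 without any single FVB array and 9, 1379 and 11 without GC13 replicates 1, 2 and 3. With the replicate block, 78 probe sets and 0 muscle genes were called; same-numbered arrays had correlations of -0.07, 0.18 and 0.36 between their deviations, so the numbers were not taken to pair the samples.

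Signs changed for the genes named here, some of them with main values as far from 0 as Actn2 (0.30) and Chrnd (-0.24), and the cause was not tested. Tnnc1 was 0.051 with pseudocount 16 and 0.003 with 32, Cacna1s 0.026 with pseudocount 16 and 0.000 with quantile normalization, and Pvalb -0.020 with pseudocount 32 and -0.028 with no centring. With array weights Tnnc1 was 0.41, Tnni1 0.004, Actn2 -0.016, Pvalb -0.064, Cacna1s 0.32, Pgam2 0.17, Myod1 -0.043 and Chrnd 0.71. With the mean of all probe sets Actn3 was 0.017, Pvalb -0.17 and Ckm 0.49. With 1 array left out, Tnnc1 ran from -0.42 to 0.695, Actn2 from -0.25 to 0.58, Pvalb from -0.17 to 0.17, Tcap from -0.10 to 0.37, Cacna1s from -0.29 to 0.41, Cacng1 from -0.012 to 0.47, Pgam2 from -0.22 to 0.017, Chrnd from -0.71 to 0.10, Mb from -0.042 to 0.21 and Myod1 from -0.088 to 0.46. The signal over background of dim probe sets is unknown.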
